A study of Homo sapiens with 4 samples.

Results

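The genes described here are 41 named genes of the integrated stress response: ATF4 with 21 genes that act with it or are known as its targets (the ATF4 group, 22 genes), and 19 cytosolic aminoacyl-tRNA synthetases. They were chosen by name, and every RefSeq transcript of a named gene was taken, with older symbols such as AARS counted as AARS1. All 41 were found among the 25027 gene symbols or unmatched identifiers of the deposited tables. RPE1 cells, a telomerase-immortalised line from human retinal pigment epithelium, were sampled 24 h or 48 h after siRNA transfection. The cells received 10 nM of a Stealth siRNA against SAF-A, the nuclear RNA-binding protein encoded by HNRNPU, or 10 nM of a Stealth negative control siRNA, both with Lipofectamine RNAi MAX. Each of the 4 combinations of siRNA and time is 1 library, from cells of 1 line and with 1 siRNA sequence against SAF-A. Ribosomal RNA was removed from total RNA before the libraries were made.

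In the integrated stress response, kinases that sense amino acid shortage, misfolded proteins in the endoplasmic reticulum, double-stranded RNA or haem shortage phosphorylate the initiation factor eIF2. Most translation then slows, while the mRNA of ATF4 is translated better, and ATF4 protein switches on genes for amino acid synthesis, amino acid uptake and tRNA charging. The cytosolic aminoacyl-tRNA synthetases join each amino acid to its tRNA. Several of them are known ATF4 targets, and all are needed for protein synthesis in unstressed cells too.

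Levels are FPKM, fragments assigned to a transcript per kilobase of its length and scaled by the mapped reads of the library, as the authors deposited them and summed here over the RefSeq transcripts of a gene. A change is a difference of log2(FPKM + 1), which understates the change of genes at a few FPKM, and a gene is called higher or lower when it reaches 2-fold on that scale. Ratios of FPKM are given without the added 1. With 1 library per group there is no replicate check and no test was run. The deposited 95% interval of each value covers the estimation within its library, not the spread between cultures. Intervals of a summed gene are sums of the bounds, and 2 values are called separate when these intervals do not overlap. The background for each count is the 11053 genes that averaged at least 1 FPKM across the libraries and have a spliced length of at least 300 nt. Of the 41 genes, 40 passed this filter. The exception was ALDH1L2, a mitochondrial enzyme of folate metabolism, which was at 0.0271, 0.00934, 0.0144 and 0 FPKM in the control and SAF-A libraries of 24 h and then of 48 h, the order used for every run of 4 values.

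HNRNPU, the gene targeted by the siRNA, was at 91.2 FPKM in control 24 h, 10.4 in SAF-A 24 h, 84.6 in control 48 h and 9.24 in SAF-A 48 h. Its change was -3.01 at 24 h and -3.06 at 48 h, in the direction that the labels give. The library labelled SAF-A 48 h stood apart in depth: the number of mapped reads derived from the deposited values was 1216740 there and 28083822 to 30701282 in the other 3 libraries. For a transcript of average structure and 2 kb, 1 FPKM was worth 2.19 reads in that library and 50.5 to 55.2 in the others, which limits the precision of every 48 h comparison with SAF-A siRNA. Without molecular identifiers, read numbers describe counting error only, and the intervals only the estimation within a library. RNAs shorter than 300 nt held 50.9% of the summed FPKM in SAF-A 48 h and 57.3% to 63.8% in the others. Of the fixed markers of retinal pigment epithelium, RPE65 was listed at 0 in all 4 libraries, while OTX2 was at 2.16 to 3.77 FPKM. MITF was lower with SAF-A siRNA at each time, at 8.90, 5.56, 9.01 and 4.23 FPKM in order, short of 2-fold. Its intervals were separate at 24 h and overlapped at 48 h, where the SAF-A library had about 23 reads. BEST1, RLBP1, TYR and PMEL were at no more than 0.969 FPKM, and the keratins KRT8 and KRT18 were not used because some of their values have a failed status. At 48 h the mesenchymal filament gene VIM was higher with SAF-A siRNA, at 3312 FPKM against 1585.5 in control (a change of 1.06). The keratin KRT7 was lower, at 3.84 against 8.92 FPKM (-1.03), from only about 7 reads in SAF-A 48 h. Whether these shifts have a part in the values of the stress genes was not tested. Markers of leukocytes, endothelium, liver, muscle and EPCAM-positive epithelium were at no more than 0.347 FPKM in any library.

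The element that ATF4 is known to bind with C/EBP proteins has the core TGATGNAA (N is any base). Promoter sequences from RefSeq (GRCh38.p14, 250 bases before to 50 bases after a transcription start) were found for 33 of the 41 genes. On either strand this core stood in 13 of the 33 (39.4%), against 1217 of 27305 gene symbols in the same table (4.46%). It was found for 6 of 17 genes of the ATF4 group (ASNS, ATF3, CEBPG, CHAC1, SLC1A5 and SLC3A2) and 7 of 16 synthetases (AARS1, CARS1, GARS1, IARS1, MARS1, NARS1 and TARS1). Shown, with the core in capitals and 5′ to 3′ on the strand of the gene, are the 2 matches in genes that were called at 48 h (CARS1 and SLC1A5) and 4 that lie upstream of the start in genes that were not.
AARS1: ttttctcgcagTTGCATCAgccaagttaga
ASNS: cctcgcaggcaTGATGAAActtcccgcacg
ATF3: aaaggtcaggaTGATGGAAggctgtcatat
CHAC1: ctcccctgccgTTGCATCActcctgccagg
CARS1: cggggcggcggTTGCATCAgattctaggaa
SLC1A5: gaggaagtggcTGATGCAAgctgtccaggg
They lie at chr16:70289675-70289704 on the minus strand (AARS1), chr7:97872458-97872487 on the minus strand (ASNS), chr1:212565205-212565234 on the plus strand (ATF3), chr15:40953251-40953280 on the plus strand (CHAC1), chr11:3057407-3057436 on the minus strand (CARS1) and chr19:46784893-46784922 on the minus strand (SLC1A5), all of GRCh38. The CARS1 match starts 2 bases before the transcription start and runs across it, and the SLC1A5 match lies before 1 of 3 starts and downstream of another. In AARS1, CHAC1 and CARS1 the core reads on the opposite strand. A match is a description of the sequence, and binding was not measured. The median change at 48 h between SAF-A and control siRNA was -0.17 for the 13 genes with a match and 0.10 for the 20 without. Of the 13 genes with a match, 1 was higher by 2-fold (CARS1, a change of 1.38) and 1 lower (SLC1A5, -1.26), while AARS1 had a change of -0.17, ASNS of -0.59, ATF3 of -0.70 and CHAC1 of -0.28. Above zero were 6 of the 13 (CARS1, GARS1, IARS1, MARS1, NARS1 and TARS1), all synthetases with separate intervals. Of the 20 without a match, 5 were higher with separate intervals. Intervals were separate and lower in 1 of the 13 and 4 of the 20. In the background 22.7% of genes were higher and 27.1% lower with separate intervals.

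At 24 h none of the 40 genes was higher or lower by 2-fold between SAF-A and control siRNA, where 0.389% of the background was higher and 0.244% lower (1.83% and 1.25% when RNAs under 300 nt are kept in it). The median change was -0.07 in the ATF4 group and -0.14 in the synthetases, beside -0.07 over all genes tested. DDIT4, an inhibitor of the growth kinase mTORC1, had the highest change of the 40 genes, 0.45, with levels of 11.4 FPKM in control and 15.9 in SAF-A siRNA and separate intervals. AARS1, which charges alanine, had the lowest, -0.49, with 30.6 FPKM in control and 21.5 in SAF-A siRNA, and its intervals were also separate.

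The synthetases leaned to the lower side at 24 h. Only SARS1 at 0.00 and NARS1 at 0.04 had a change at or above zero, so that 2 of 19 were above zero, where 35.6% of the background was. Intervals were separate in 8 of 19 (AARS1, EPRS1, FARSA, FARSB, HARS1, LARS1, RARS1 and VARS1), all lower with SAF-A siRNA, where 18.4% of the background was lower with separate intervals. In the ATF4 group 6 of 21 changes were above zero, and intervals were separate and lower in CEBPB, SLC7A5 and SLC1A5. All of these differences were under 1.5-fold. They depended on scaling in size: when FPKM was rescaled to TPM over all RNAs, the median of all genes moved from -0.07 to -0.23 and that of the synthetases to -0.33.

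**Figure D1:**
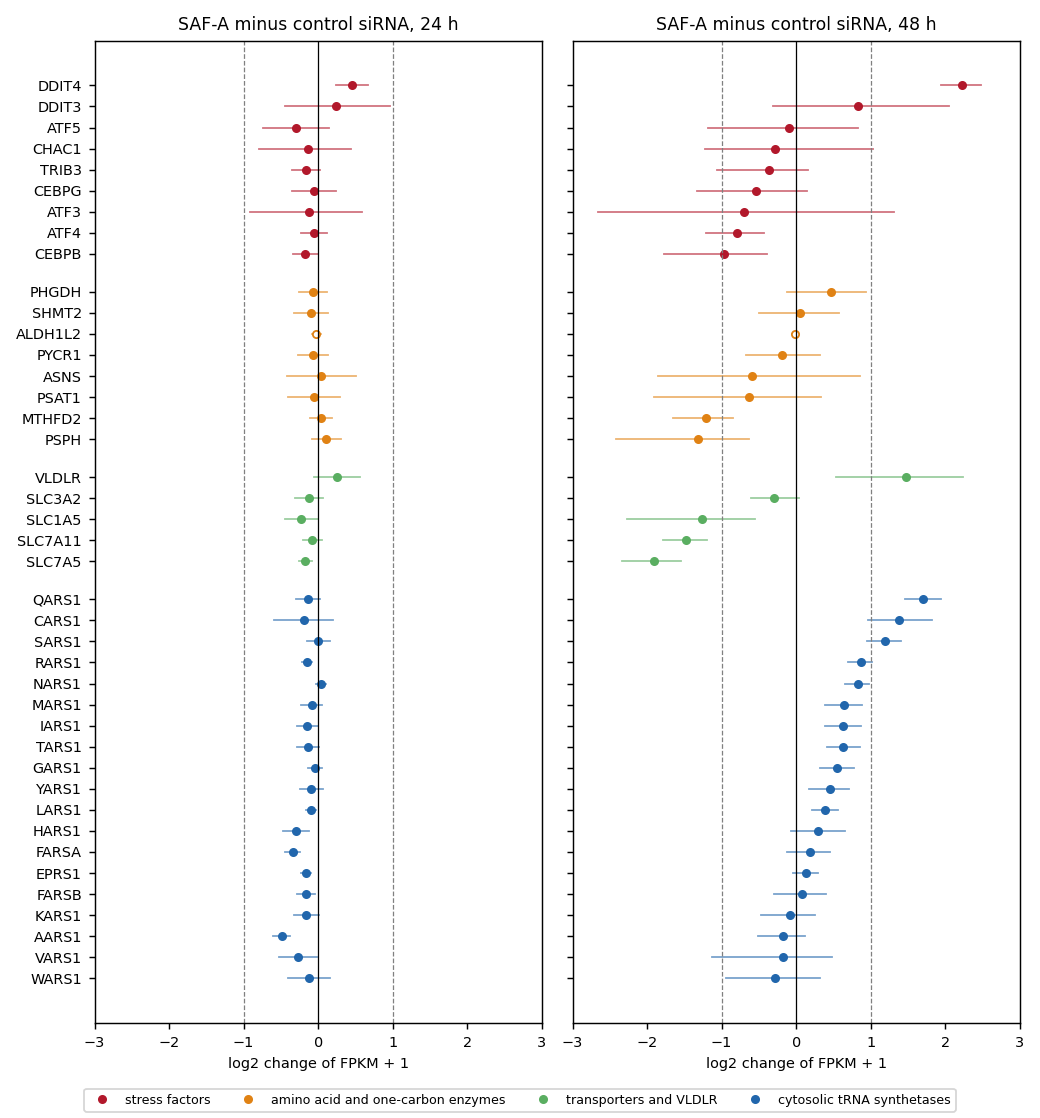
Change in log2(FPKM + 1), SAF-A minus control siRNA, of the 41 genes at 24 h (left) and 48 h (right), grouped by role. Points are the difference between 1 library of each kind, lines span the extreme combinations of the deposited 95% bounds, dashed lines mark 2-fold, and the open circle is ALDH1L2, which did not pass the filter. No point passes a dashed line at 24 h, while at 48 h 5 genes lie beyond 2-fold on each side and most synthetases lie to the right of zero.

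At 48 h transporters and enzymes of amino acid supply were mostly on the lower side and synthetases mostly on the higher. The transporters SLC7A5, SLC7A11 and SLC1A5 and the enzymes PSPH and MTHFD2 were lower with SAF-A siRNA, at 25.1% to 42.5% of the control level. The synthetases QARS1, CARS1 and SARS1, the stress gene DDIT4 and the lipoprotein receptor VLDLR were higher, by 2.29-fold to 5.07-fold. That is 5 of 40 genes higher and 5 of 40 lower, where 14.3% of the background was higher and 18.5% lower, so both counts are near or below the background share. The intervals of all 10 genes were separate, where 12.8% of the background was higher and 16.6% lower with separate intervals. The median change was -0.54 in the ATF4 group and 0.45 in the synthetases, beside -0.11 over all genes tested. With libraries set to a common sum over RNAs of at least 300 nt, 4 genes were higher and 7 lower, the median of all genes moved from -0.11 to -0.31 and that of the synthetases to 0.22. The background shares under that scaling are not given here. The SAF-A 48 h library alone stands on 1 side of these values, and the part that its depth has in them was not tested. In RNA from whole cultures a smaller share of cells that express a gene and less of its RNA per cell cannot be told apart.

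ATF4 itself, the transcription factor of the response (chr22:39916569-39918691, plus strand, GRCh37, as all positions from here on), was at 110.0 FPKM in control 24 h, 106 in SAF-A 24 h, 119.9 in control 48 h and 68.6 in SAF-A 48 h. The SAF-A 48 h library was the lowest, and the other 3 lay close together. Its change was -0.05 at 24 h and -0.80 at 48 h with separate intervals, short of the 2-fold limit, from about 102 reads in the SAF-A 48 h library. With the common sum over RNAs of at least 300 nt it was -1.03, past the limit. ATF4 is regulated mainly through its translation, which RNA levels do not measure.

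Most factors that act with or after ATF4 had changes below zero at 48 h, with few reads in the SAF-A library. CEBPB, a C/EBP partner of ATF4, was at 20.9 FPKM in control 24 h, 18.4 in SAF-A 24 h, 18.6 in control 48 h and 9.06 in SAF-A 48 h. The change at 48 h was -0.96 with separate intervals, just inside the 2-fold limit. DDIT3, which encodes the pro-apoptotic factor CHOP, was at 17.5, 20.7, 13.1 and 23.9 FPKM in the same order. Its change at 48 h of 0.82 had bounds of -0.31 to 2.05, so that neither direction was resolved from about 21 reads.

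TRIB3, a pseudokinase that dampens ATF4, and CEBPG, another dimer partner, had changes of -0.37 and -0.54 at 48 h with overlapping intervals. ATF5, a factor related to ATF4, had the smallest change among the stress factors, -0.09, at 7.01, 5.54, 6.41 and 5.95 FPKM in the order of the 4 libraries above. CHAC1, which degrades glutathione, and ATF3, a stress-induced repressor, rested on about 1 and 5 reads in SAF-A 48 h, too few to show a difference of 2-fold. CHAC1 was at 1.37, 1.15, 0.955 and 0.606 FPKM and ATF3 at 2.07, 1.82, 4.19 and 2.2 FPKM. DDIT3 and the synthetase MARS1 are read from opposite strands and share 68 bases of exon, 5.77% of DDIT3, and whether strand was used in counting is not given in the sources used here.

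DDIT4 (chr10:74033677-74035797, plus strand) was the 1 stress factor called at 48 h. It was at 11.4 FPKM in control 24 h, 15.9 in SAF-A 24 h, 26.3 in control 48 h and 126 in SAF-A 48 h. The level was higher with SAF-A siRNA at each time and higher at 48 h with each siRNA, and the 4 intervals did not overlap. At 48 h it was 4.81-fold higher with SAF-A siRNA, a change of 2.22 with bounds of 1.94 to 2.48, from about 239 reads. It was the only one of the 40 genes called in the control libraries over time, with a change of 1.14. DDIT4 is known to respond to hypoxia, glucocorticoids and energy shortage as well as to ATF4.

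Among the enzymes that make serine, glycine, asparagine and proline and carry one-carbon units, 2 of 7 were lower at 48 h and none was higher, beside 18.5% and 14.3% of the background, with a median change of -0.59. PSPH, which makes serine in the last step of its synthesis (chr7:56078744-56119268, minus strand), was at 13.4 FPKM in control 24 h, 14.6 in SAF-A 24 h, 13.3 in control 48 h and 4.72 in SAF-A 48 h. Its change at 48 h was -1.32, from about 11 reads in SAF-A 48 h, with bounds of -2.41 to -0.64. MTHFD2, a mitochondrial folate enzyme (chr2:74425690-74442424, plus strand), was at 82.9, 85.1, 82.2 and 34.9 FPKM in the same order.

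The MTHFD2 level was alike in 3 libraries and lower in SAF-A 48 h, with a change of -1.21 at 48 h from about 84 reads and bounds of -1.66 to -0.84. All 2187 exonic bases of MTHFD2 are shared with the noncoding RefSeq transcript NR_027405, which has no symbol in the names used and was at 11.1, 6.51, 5.40 and 3.47 FPKM, so the division of reads between them is uncertain. PSAT1, which acts just before PSPH, was at 13.5, 13.0, 7.91 and 4.72 FPKM, and its change of -0.64 at 48 h had overlapping intervals. ASNS, the asparagine synthetase and a classical ATF4 target, was at 10.3, 10.6, 8.40 and 5.26 FPKM, a change of -0.59 from about 12 reads, also with overlapping intervals.

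The other enzymes of these routes had smaller changes. PHGDH, which starts serine synthesis, was at 16.0, 15.2, 14.1 and 20.0 FPKM, a change of 0.47 at 48 h with overlapping intervals. SHMT2, which turns serine into glycine in mitochondria, was at 76.9, 71.9, 78.4 and 81.3 FPKM and had the smallest change of the enzymes tested, 0.05. PYCR1, the last step to proline, had a change of -0.19.

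The amino acid transporters were the role with the lowest median, -1.26 at 48 h over 4 transporter genes and VLDLR. SLC7A5 (chr16:87863629-87903100, minus strand), the exchanger that brings leucine and other large neutral amino acids into the cell, was at 34.0 FPKM in control 24 h, 30.1 in SAF-A 24 h, 44.8 in control 48 h and 11.3 in SAF-A 48 h. It was higher at 48 h than at 24 h in the control libraries and lower in the SAF-A libraries, with separate intervals in both. Its change between siRNAs at 48 h was -1.90, the lowest of the 40 genes, at 25.1% of control, with bounds of -2.34 to -1.55 from about 60 reads.

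SLC7A11 (chr4:139085248-139163503, minus strand), the cystine and glutamate exchanger that feeds glutathione synthesis, was at 58.5, 55.3, 38.5 and 13.2 FPKM in the same order. The level was lower at 48 h with either siRNA and lowest in SAF-A 48 h. Its change at 48 h between siRNAs was -1.47, with bounds of -1.78 to -1.19 from about 152 reads. SLC1A5, a glutamine carrier (chr19:47278140-47291842, minus strand), was at 54.5, 46.4, 49.9 and 20.2 FPKM, and its change at 48 h was -1.26 with bounds of -2.27 to -0.55 from about 53 reads.

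SLC3A2 encodes the heavy chain that takes SLC7A5 and SLC7A11 to the cell surface, and its RNA did not reach the limit. It was at 143, 131, 129.6 and 106 FPKM, a change of -0.29 at 48 h with overlapping intervals, the smallest among the transporters. VLDLR, a lipoprotein receptor and reported ATF4 target (chr9:2621793-2654485, plus strand), was at 0.944, 1.32, 0.775 and 3.93 FPKM. It was 5.07-fold higher with SAF-A siRNA at 48 h, a change of 1.47 with bounds of 0.54 to 2.24 that rests on about 16 reads.

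**Figure D2:**
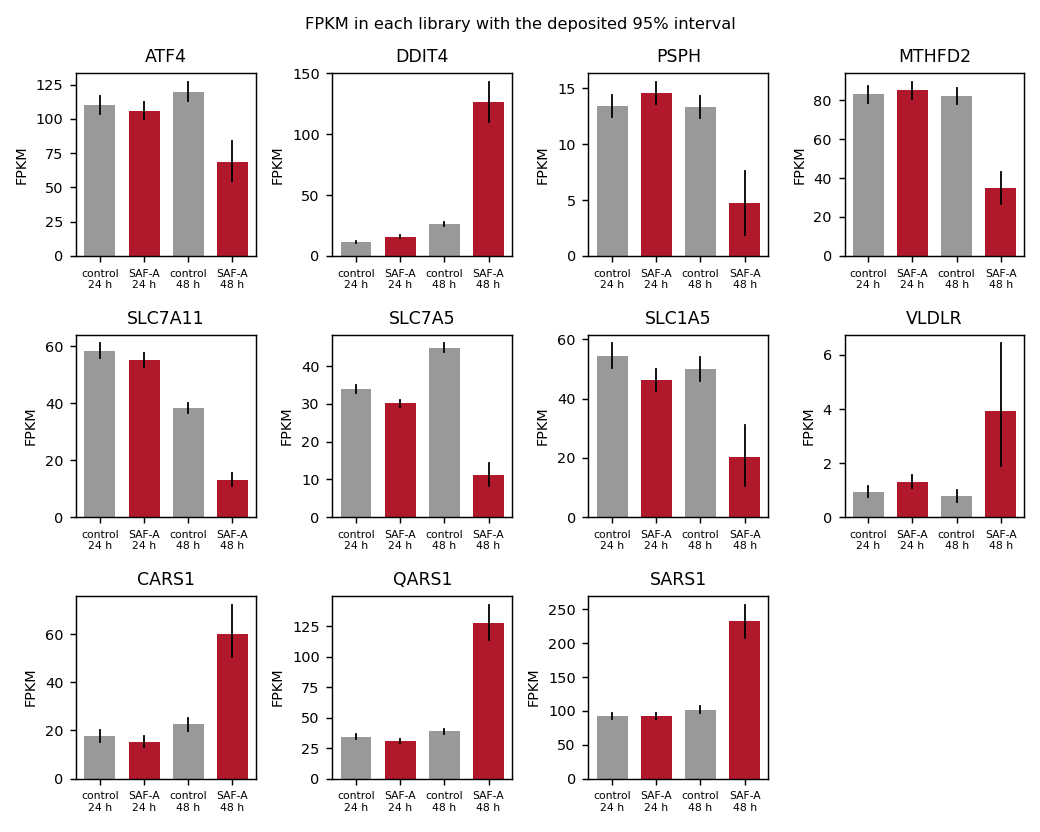
FPKM of ATF4 and of the 10 genes called at 48 h in each of the 4 libraries, on linear axes from 0. Bars are the value of 1 library (grey, control siRNA; red, SAF-A siRNA), lines are the deposited 95% interval, and the SAF-A 48 h bar stands apart from the other 3 in each panel, with ATF4 at 119.9 FPKM in control and 68.6 in SAF-A siRNA at 48 h.

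Of the 19 cytosolic synthetases, 3 were higher at 48 h with SAF-A siRNA and none was lower, beside 14.3% and 18.5% of the background, so the count of higher genes is near the background. A change above zero was found in 15, where 45.9% of the background was above zero. That background reaches down to a mean of 1 FPKM, while no synthetase was under 15.3 FPKM in any library. Intervals were separate and higher in 11 of 19, against 22.7% of the background, and separate and lower in none, against 27.1%. Their RNAs were abundant, with about 76 to 911 reads each in the SAF-A 48 h library, against a median of about 26.5 reads in the ATF4 group, so smaller changes could be resolved. Under the common sum over RNAs of at least 300 nt, 12 of 19 were above zero and SARS1 had a change of 0.95, short of the limit.

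QARS1 (chr3:49133365-49142562, minus strand), which charges glutamine, was at 34.1 FPKM in control 24 h, 30.9 in SAF-A 24 h, 38.6 in control 48 h and 128 in SAF-A 48 h. The 3 other libraries lay within 30.9 to 38.6 FPKM and SAF-A 48 h lay 3.30-fold above its control, a change of 1.70 with bounds of 1.45 to 1.94 from about 407 reads. CARS1 (chr11:3022152-3078681, minus strand), which charges cysteine, was at 17.7, 15.3, 22.5 and 60.0 FPKM in the same order. It was 2.67-fold higher with SAF-A siRNA at 48 h, a change of 1.38 with bounds of 0.96 to 1.83.

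SARS1 (chr1:109756515-109780804, plus strand), which charges serine, was at 92.5, 92.5, 102 and 233 FPKM. The 24 h libraries had the same level, and at 48 h the SAF-A library was 2.29-fold higher, a change of 1.19 with bounds of 0.95 to 1.41. RARS1 and NARS1, for arginine and asparagine, came next with changes of 0.87 and 0.82, both with separate intervals. RARS1 was at 123, 110.4, 127 and 232 FPKM, and NARS1 at 88.8, 91.4, 88.9 and 158 FPKM.

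A middle group of synthetases had changes of 0.39 to 0.65 with separate intervals: MARS1, IARS1, TARS1, GARS1, YARS1 and LARS1. IARS1, for isoleucine, was among the most abundant at 114, 103, 109.7 and 170.3 FPKM. HARS1, FARSA, EPRS1 and FARSB had changes of 0.29, 0.19, 0.13 and 0.08 with overlapping intervals. FARSA and FARSB encode the subunits of the enzyme for phenylalanine, and FARSB, at 39.4, 35.1, 37.6 and 39.7 FPKM, had the smallest change of all 19.

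The 4 synthetases below zero at 48 h were KARS1 at -0.09, AARS1 at -0.17, VARS1 at -0.18 and WARS1 at -0.29, all with overlapping intervals. The KARS1 value sums 2 transcripts that differed in direction at 48 h. Its leading transcript was at 90.8 FPKM in control and 97.5 in SAF-A siRNA, with overlapping intervals. The other KARS1 transcript was at 22.6 and 9.22 FPKM, with separate intervals, from about 22 reads in SAF-A 48 h. VARS1 was summed over 7 entries, on chromosome 6 and on 6 alternative haplotype sequences of it that share reads, and its bounds at 48 h were wide, from -1.13 to 0.48. Synthetases that sit in the multi-synthetase complex (EPRS1, IARS1, KARS1, LARS1, MARS1, QARS1 and RARS1, 7 genes) had a median change of 0.63, and the other 12 had 0.37. HARS1 shares 302 exonic bases with HARS2, and YARS1 shares 248 with S100PBP, which limits their values if counting was without strand.

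Between the times, LARS1 and RARS1 stood on opposite sides of their controls with separate intervals at each time. LARS1, which charges leucine, was at 52.3 FPKM in control 24 h, 49.0 in SAF-A 24 h, 55.4 in control 48 h and 72.9 in SAF-A 48 h, changes of -0.09 and 0.39. RARS1 had changes of -0.15 and 0.87. These 2 of 40 genes compare with 2.06% of the background with this pattern. Of the 19 synthetases, 13 were below zero at 24 h and above it at 48 h, beside 24.6% of all genes tested. In the ATF4 group 16 of 21 genes had the same sign at both times, beside 61.1% of all genes tested. Across the 19 synthetases the changes at the 2 times had a Spearman correlation of 0.46, across the 21 genes of the ATF4 group 0.31 and across all 11053 genes 0.34. These are descriptions over genes, which share libraries and are not replicates.

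In the control libraries 1 of 40 genes (DDIT4) was higher at 48 h than at 24 h and none was lower, beside 0.561% and 0.425% of the background. PSAT1 and SLC7A11 had changes of -0.70 and -0.59, and ATF3 and SLC7A5 of 0.76 and 0.39, all with separate intervals. The median was -0.13 in the ATF4 group and 0.08 in the synthetases, beside 0.03 over all genes tested. In the SAF-A libraries 6 of 40 genes were higher at 48 h than at 24 h (DDIT4, VLDLR, CARS1, QARS1, RARS1 and SARS1) and 6 lower (PSAT1, PSPH, MTHFD2, SLC7A11, SLC7A5 and SLC1A5), beside 15.5% and 16.0% of the background. Rescaled to TPM the numbers were 9 higher and 5 lower, and with the common sum over RNAs of at least 300 nt, or centred on the median change of genes with at least 5 FPKM, 4 higher and 8 lower. The background shares under these settings are not given here.

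The comparison over time with SAF-A siRNA uses the same SAF-A 48 h library as the comparison of siRNAs at 48 h, so the 2 sets of values are not independent. Within the SAF-A libraries 18 of 19 synthetases had a change above zero over time, beside 49.4% of the background, with a median of 0.72, and WARS1, at -0.23, was the exception. SLC7A11 had the lowest change over time, -1.98, and DDIT4 the highest, 2.91. The median of the ATF4 group was -0.44, and that of all genes tested -0.01.

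**Figure D3:**
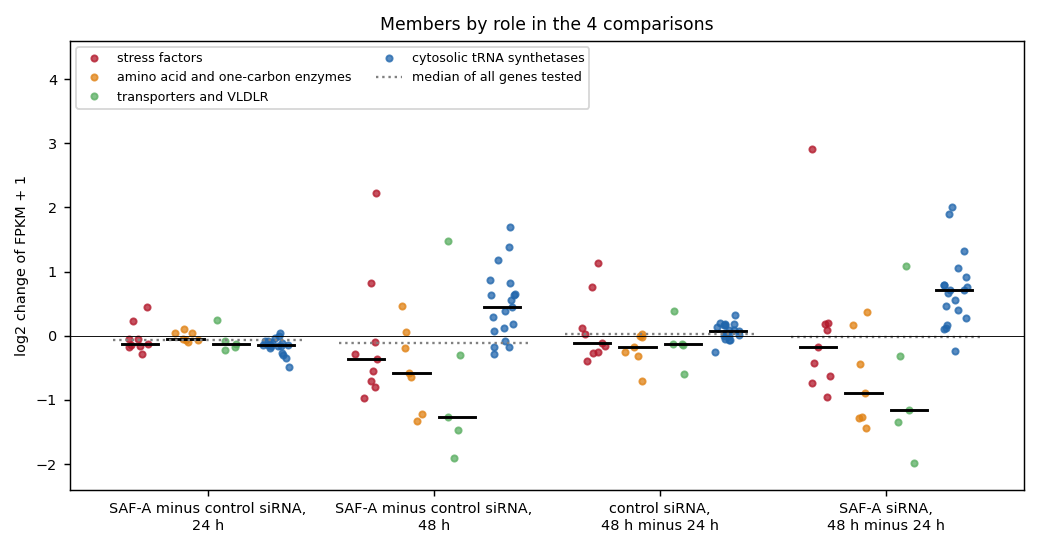
Change in log2(FPKM + 1) of each gene that passed the filter, by role, in the 4 comparisons between libraries. Points are genes, black bars the median of a role and dotted lines the median of all genes tested. The median of the synthetases lies below those of the other roles between siRNAs at 24 h, at -0.14. It lies above them in the other comparisons, at 0.45 between siRNAs at 48 h, 0.08 over time with control siRNA and 0.72 over time with SAF-A siRNA.

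The RefSeq transcripts behind some of these values were divided differently in SAF-A 48 h. Of 21 genes with several transcripts, the leading one was the same in all 4 libraries in 16. A single transcript of at least 1% share was left in 16 of 21 genes in SAF-A 48 h, against 4, 4 and 2 in the other libraries in order. For CARS1 the transcript NM_001751 held 67.3%, 61.3% and 61.1% of the FPKM in those 3 libraries, and NM_139273 held 99.9% in SAF-A 48 h, 59.99 of 60.0 FPKM.

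For VLDLR the leading transcript was NM_003383 in 3 libraries and NM_001018056 in SAF-A 48 h. In QARS1 a single transcript, NM_005051, carried the value in every library, and in SARS1 the transcript NM_006513 held 95.2% to 99.5%. IARS1, with many reads, kept 2 transcripts, with NM_002161 at 71.1%, 72.8%, 73.8% and 68.3%. SLC1A5 also kept 2, with NM_005628 at 70.7%, 66.8%, 71.3% and 54.8%. The part of depth in these shares was not tested.

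**Figure D4:**
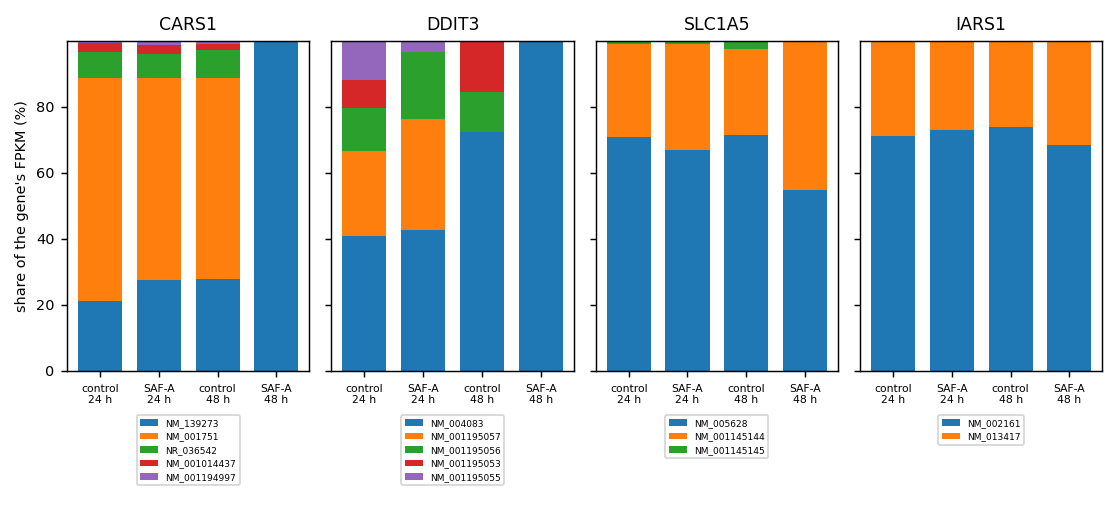
Share of a gene's FPKM assigned to each RefSeq transcript in the 4 libraries, as stacked bars in percent, for CARS1, DDIT3, SLC1A5 and IARS1. In SAF-A 48 h at least 99.9% of CARS1 and of DDIT3 is assigned to 1 transcript, while IARS1 keeps NM_002161 at 68.3% and SLC1A5 keeps NM_005628 at 54.8%.

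Upstream of ATF4, the list of eIF2 kinases, eIF2 subunits and their regulators had 2 of 14 genes higher and 2 lower at 48 h, near or below the 14.3% and 18.5% of the background, with a median of 0.12. EIF2AK3, the kinase PERK of the endoplasmic reticulum, was at 9.13 FPKM in control 24 h, 6.79 in SAF-A 24 h, 9.20 in control 48 h and 20.5 in SAF-A 48 h, a change of 1.08. EIF2AK4, the kinase GCN2 that senses uncharged tRNA, was at 20.7, 19.0, 21.6 and 53.3 FPKM, a change of 1.26. The other 2 called genes encode the beta and gamma subunits of eIF2: EIF2S2, at 71.6, 68.5, 75.1 and 23.1 FPKM, had a change of -1.66, and EIF2S3, at 72.5, 60.8, 80.8 and 17.0 FPKM, one of -2.18. The intervals of these 4 genes were separate at 48 h.

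Of 20 further genes known as ATF4 targets, 14 passed the filter, and at 48 h 2 were higher and 1 was lower (SLC6A9, a glycine transporter, with overlapping intervals), beside 14.3% and 18.5% of the background, and the median was -0.24. NUPR1, a stress-induced chromatin protein, was at 3.79, 3.49, 3.80 and 37.7 FPKM, a change of 3.01 from about 30 reads. SLC38A2, an amino acid carrier induced by amino acid shortage, was at 140, 148, 166 and 371 FPKM, a change of 1.15 from about 2116 reads. Both had separate intervals, opposite in direction to SLC7A5, SLC7A11 and SLC1A5.

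The mitochondrial synthetases listed here charge tRNAs of the organelle. At 24 h all 17 were below zero, where 64.3% of the background was, with a median of -0.19. At 48 h 2 of 17 were higher (CARS2 and RARS2) and 6 lower, beside 14.3% and 18.5% of the background, with a median of -0.35 against 0.45 for the cytosolic synthetases, a difference that was not tested. Of the 6 lower genes, PARS2, MARS2 and TARS2 rested on about 1, 6 and 6 reads in SAF-A 48 h. The median in that library was about 26.0 reads in the mitochondrial and about 250 in the cytosolic synthetases. CARS2 was at 41.6, 31.5, 37.9 and 86.7 FPKM and RARS2 at 18.3, 18.1, 19.5 and 64.1 FPKM. The 3 scaffold proteins of the multi-synthetase complex had a median of -0.23 at 48 h, with none called.

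Genes of the other branches of the endoplasmic reticulum stress response, driven by XBP1 and ATF6, had a median of 0.31 at 48 h, with 3 of 15 higher and 1 lower, beside 14.3% and 18.5% of the background. The higher genes were DNAJB11, PDIA6 and CRELD2, which encode folding factors, with changes of 1.19, 1.31 and 1.05. EDEM1, which marks misfolded glycoproteins for degradation, had a change of -1.26. HSPA5, the chaperone BiP, was at 97.2, 96.6, 72.3 and 89.6 FPKM, a change of 0.31 at 48 h with separate intervals. In the control libraries all 15 genes were lower at 48 h than at 24 h, where 43.7% of the background was. Their median over time was -0.29 there and -0.07 in the SAF-A libraries. Whether the lower control level at 48 h has a part in the comparison of siRNAs was not tested. Between siRNAs at 24 h, 10 of the 15 genes were above zero, beside 35.6% of the background, with a median of 0.03. No gene of these lists was called at 24 h.

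GC content and length of the transcripts were also compared. Across 11047 genes the change at 48 h had a Spearman correlation of 0.04 with GC content and of -0.11 with length, given as descriptions. For the change at 24 h the correlations were -0.18 with GC content and -0.11 with length. The part of GC content and length in the values of the 41 genes was not tested. The median GC content was 56.3% in the ATF4 group and 50.0% in the synthetases, beside 48.2% over all genes, and the median lengths were 2118, 2749 and 2831 nt.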

How the data were processed

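RNA-seq of 4 libraries, 1 per group, was analysed: control and SAF-A siRNA at 24 h and 48 h. Groups were taken from the titles, and the labels' extraction protocol and the series' design text state that each condition was done once. Per the file headers, each deposited table gives FPKM per RefSeq transcript, its 95% bounds and a status flag. The submitters' processing notes name TopHat2 2.0.10, Bowtie2 2.1.0, TopHat, Cufflinks 2.2.1, Cuffdiff and the build hg19. How strand and reads mapping to several places were treated is not given in the sources used here. A coverage value in the deposited transcript files served only for depth: coverage divided by FPKM is constant within a library and, with 50-base reads, gives its mapped reads. Estimated reads assume fragments of 200 ± 80 nt.

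Of 44444 accessions, 97.3% matched a symbol in the RefSeq table. FPKM and bounds were summed per symbol, no value of the 41 genes had a failed status, and 87.8% of their 609 exons were identical to exons of GENCODE release 44 on GRCh37. Changes are differences of log2(FPKM + 1), with a pseudocount of 1 and the filters given above. Scripts in Python 3.11.15 with numpy 2.4.6, pandas 2.3.3, scipy 1.17.1 and matplotlib 3.10.9 were tested on simulated data. The genes and the lists were chosen with earlier results of these data known. Named with all values are HNRNPU, ATF4, the genes called in a comparison of siRNAs with separate intervals, the gene of smallest change in each role at 48 h, and at most 5 called genes of each other list. Other genes were named after their values were seen. Alternatives were a pseudocount of 0.1, no filter, a mean of at least 5 FPKM, centring, TPM, a common sum over RNAs of at least 300 nt, a background of all lengths, separate intervals and a 1.5-fold limit.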

Additional observations from a re-analysis of the deposited data

Results flagged for a closer look

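The median change of the synthetases between SAF-A and control siRNA was -0.14 at 24 h and 0.45 at 48 h, so that it lay on opposite sides of zero at the 2 times. LARS1 had changes of -0.09 at 24 h and 0.39 at 48 h, and RARS1 of -0.15 and 0.87, each with separate intervals at both times. With 1 library per group the difference between the times was not tested.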

How the results depend on the processing

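No paired analysis was possible because each group has 1 library and the result comes from no test. For the same reason no replicate could be left out. With TPM the synthetase median at 24 h was -0.33 and that of the ATF4 group -0.24. With a 1.5-fold limit 11 genes were higher and 10 lower at 48 h, 2 higher and 2 lower over time in control libraries, and 13 higher and 10 lower over time in SAF-A libraries. The share of all genes past 1.5-fold is not given here, so these counts have no background beside them. At 24 h no gene passed under any alternative, the 1.5-fold limit included. At 48 h the medians ranged from -0.75 to -0.46 in the ATF4 group and from 0.22 to 0.46 in the synthetases, with the extremes -0.75 and 0.22 from the common sum over RNAs of at least 300 nt. Under the other pseudocount and the rescalings or centring (4 settings), 9 of the 10 genes called at 48 h passed 2-fold each time. The exception was SARS1, at 0.95 with that common sum, under which ATF4 passed at -1.03. A pseudocount of 0.1 moved VLDLR at 48 h from 1.47 to 2.2. The filters on FPKM cannot move the change of a single gene and only decide whether it is counted. VLDLR, with a mean under 5 FPKM, was not counted with that filter. Keeping RNAs under 300 nt raised the share of all genes past 2-fold at 24 h to 1.83% higher and 1.25% lower, and left the counts among the 40 genes as they were. The cause of these shifts was not tested. Depth limits the SAF-A 48 h library most: 3 genes of the ATF4 group had under 10 reads there.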
